A study of Homo sapiens with 12 samples.

Results

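The heterogeneous nuclear ribonucleoprotein (HNRNP) and RBMX mRNAs described here were the transcripts of 7 genes: HNRNPA1, HNRNPA2B1, HNRNPK, HNRNPU, HNRNPC, HNRNPH1 and RBMX. Their members were the poly(A) sites, that is the mapped 3′ ends, that lay in a fixed stretch of the human genome (build hg19) on the gene's strand and had at least 10 reads in at least 1 library. There were 40 such sites of 640413 in the pull-down table, and 29 of 189010 among the sites of the fractions. In the pull-down table HNRNPU had 12, HNRNPA2B1 8, HNRNPC 6, HNRNPK 5, RBMX 4, HNRNPA1 3 and HNRNPH1 2. In the fraction table HNRNPU had 8, HNRNPC 6, HNRNPA2B1 5, HNRNPA1 3, RBMX 3, HNRNPK 2 and HNRNPH1 2. The members carried 99.7% of the reads in the stretches in the pull-down table and 99.4% in the fraction table. Just outside the minimum were 2 pull-down sites with 9 reads in their best library, and just inside it were 1 site with 10 and 2 sites with 11. In the fraction table the nearest sites had 7 reads outside and 11 inside.

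HNRNP proteins coat nascent and mature transcripts and act in splicing, export, stability and translation. Many of their genes regulate themselves through the processing of their own transcripts, and many end in more than one place, so that a gene makes mRNAs with shorter and longer 3′ untranslated regions. Staufen 1 (STAU1) is a double-stranded RNA-binding protein that binds structured mRNAs, often in the 3′ untranslated region, and takes part in mRNA transport, translation and decay.

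The study measured 3′ ends by 3'READS+, in which poly(A)+ RNA fragments are captured and each read marks the end of a transcript, in HEK293T cells, a human embryonic kidney line. The 8 pull-down libraries all came from STAU1-KO cells (clone C8, made with a Cas9 nickase pair) that transiently expressed a tagged protein: anti-FLAG pull-downs from cells with STAU1-FLAG (STAU1 IP), total poly(A)+ RNA of those cells (STAU1 input), anti-FLAG pull-downs from cells with FLAG-GFP (GFP IP) and their total poly(A)+ RNA (GFP input), with 2 libraries each. The 4 fraction libraries had no transfection in their labels and came as 1 library each of STAU1-KO cytoplasm (KO_C), STAU1-KO polysomes (KO_P), wild-type cytoplasm (WT_C) and wild-type polysomes (WT_P), the wild type being the isogenic control clone C9. By the labels, STAU1 in the STAU1 groups came from the plasmid, and each genotype was a single clone. The labels do not say that the replicates came from separate cultures, so p-values measure the spread between these libraries only.

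Library totals were 5727812 to 6212606 reads in the STAU1 IPs and 5567893 to 9655646 in the STAU1 inputs. They were 1245270 to 1291888 in the GFP IPs, the shallowest, and 7636541 to 8932299 in the GFP inputs. The fraction libraries held between 2799226 and 3483937. The tables name no genes, so the knocked-out gene and markers of the cell line were not examined here. Of the 40 pull-down members, 32 passed the filter on low counts and were tested among 33744 sites. The 19 ends that each held at least 5% of their gene's reads, called main ends below, were all tested. Levels are CPM, reads scaled to a common library total after adjustment by the trimmed mean of M-values (TMM). A site was called at an adjusted p under 0.05 in edgeR's quasi-likelihood test, with Benjamini-Hochberg adjustment over all sites tested.

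Summed over all ends of a gene, 4 of the 7 mRNAs fell in the GFP IP relative to the GFP input: HNRNPU, HNRNPK, HNRNPA1 and HNRNPC. None of the 7 sums was called in the STAU1 IP relative to the STAU1 input. Among all rows of that table, 4.0% were called lower in the GFP IP and 6.05% were called in either direction in the STAU1 IP. Abundant rows were called more often. Of single sites with an average log2 CPM of at least 4, 18.8% were called lower in the GFP IP. In the STAU1 IP, 11.1% of them were called higher and 12.7% lower. The median log2 difference of the 7 sums was −0.73 for GFP IP over GFP input and −0.27 for STAU1 IP over STAU1 input, where the medians of all rows were −0.16 and 0.12. The GFP IP relative to the GFP input gives the background of the anti-FLAG procedure.

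HNRNPA1 encodes a shuttling repressor of splicing (chromosome 12, plus strand, 54674400 to 54680200). Its sum stood at 1046 and 1098 CPM in the STAU1 IPs, against 1261 and 1318 CPM in the STAU1 inputs. It stood at 1145 and 973 CPM in the GFP IPs, against 1868 and 1647 CPM in the GFP inputs. The groups did not overlap in either pair, and the GFP inputs were the highest of the 8 libraries. The GFP pair differed by −0.73 ± 0.16 on the log2 scale (SE, edgeR adjusted p = 0.00784), and the STAU1 pair by −0.27 ± 0.16 (edgeR adjusted p = 0.382).

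HNRNPA2B1, its close relative (chromosome 7, minus strand, 26229000 to 26240500), had 492 and 491 CPM in the STAU1 IPs, against 602 and 667 CPM in the STAU1 inputs. It had 687 and 638 CPM in the GFP IPs, against 509 and 759 CPM in the GFP inputs. Neither pair was called, and the 2 GFP inputs lay further apart than the GFP pair's means. The log2 differences were −0.37 ± 0.19 for STAU1 (edgeR adjusted p = 0.304) and 0.06 ± 0.19 for GFP (edgeR adjusted p = 0.921).

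HNRNPC encodes a nuclear protein that binds uridine tracts (chromosome 14, minus strand, 21676800 to 21737700). Its sum was 637 and 592 CPM in the STAU1 IPs, against 705 and 847 CPM in the STAU1 inputs. It was 641 and 629 CPM in the GFP IPs, against 1114 and 993 CPM in the GFP inputs. Across the 8 libraries its pattern was the most like that of HNRNPA1 among the other 6 genes (Pearson r = 0.96 of log2 CPM over 8 libraries, a description, since the libraries share groups). The GFP pair differed by −0.73 ± 0.17 on the log2 scale (edgeR adjusted p = 0.0117) and the STAU1 pair by −0.34 ± 0.17 (edgeR adjusted p = 0.284).

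HNRNPK, a poly(C)-binding protein with KH domains (chromosome 9, minus strand, 86582500 to 86595700), was the least abundant of the 7 in the pull-down table. Its sum was 30.6 and 35.6 CPM in the STAU1 IPs, against 41.4 and 48.8 CPM in the STAU1 inputs. It was 25.6 and 43.7 CPM in the GFP IPs, against 85.8 and 67.1 CPM in the GFP inputs, and the GFP IP values rest on 37 and 60 reads. The GFP pair differed by −1.14 ± 0.31 (edgeR adjusted p = 0.0312) and the STAU1 pair by −0.45 ± 0.29 (edgeR adjusted p = 0.431). The GFP call was lost under both other scalings (RLE size factors, library totals) and without GFP IP replicate 1 or GFP input replicate 1 (adjusted p = 0.541 and 0.14 for those libraries), and the difference was −1.75 without GFP IP replicate 2.

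HNRNPU encodes scaffold attachment factor A, a chromatin-bound RNA-binding protein (chromosome 1, minus strand, 245013000 to 245028000). Its sum was 171 and 200.4 CPM in the STAU1 IPs, against 233 and 213 CPM in the STAU1 inputs. It was 104 and 109 CPM in the GFP IPs, against 228 and 228 CPM in the GFP inputs. Both GFP IPs were thus below every other library. The GFP pair differed by −1.09 ± 0.20 (edgeR adjusted p = 0.0021) and the STAU1 pair by −0.26 ± 0.19 (edgeR adjusted p = 0.504). The HNRNPU call held in all 14 alternative settings run.

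HNRNPH1, which binds runs of G (chromosome 5, minus strand, 179040700 to 179051700), had 90.4 and 84.7 CPM in the STAU1 IPs, against 73.9 and 71.6 CPM in the STAU1 inputs. It had 73.3 and 86.0 CPM in the GFP IPs, against 94.8 and 74.3 CPM in the GFP inputs. The STAU1 groups did not overlap and the GFP groups did. Neither pair was called, with differences of 0.27 ± 0.23 (edgeR adjusted p = 0.583) and −0.09 ± 0.24 (edgeR adjusted p = 0.912).

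RBMX encodes an X-linked RNA-binding motif protein, also named hnRNP G (chromosome X, minus strand, 135951000 to 135963000). Its sum was 169 and 188 CPM in the STAU1 IPs, against 143 and 113 CPM in the STAU1 inputs. It was 119 and 138 CPM in the GFP IPs, against 149 and 155 CPM in the GFP inputs. The 2 STAU1 IPs were the highest of the 8 libraries. The STAU1 pair differed by 0.48 ± 0.21 (unadjusted p = 0.0322, edgeR adjusted p = 0.209) and the GFP pair by −0.24 ± 0.21 (edgeR adjusted p = 0.637). The STAU1 sum of RBMX was the 1 of 7 with an unadjusted p under 0.05, and DESeq2 also called 0 of 7.

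**Figure D1:**
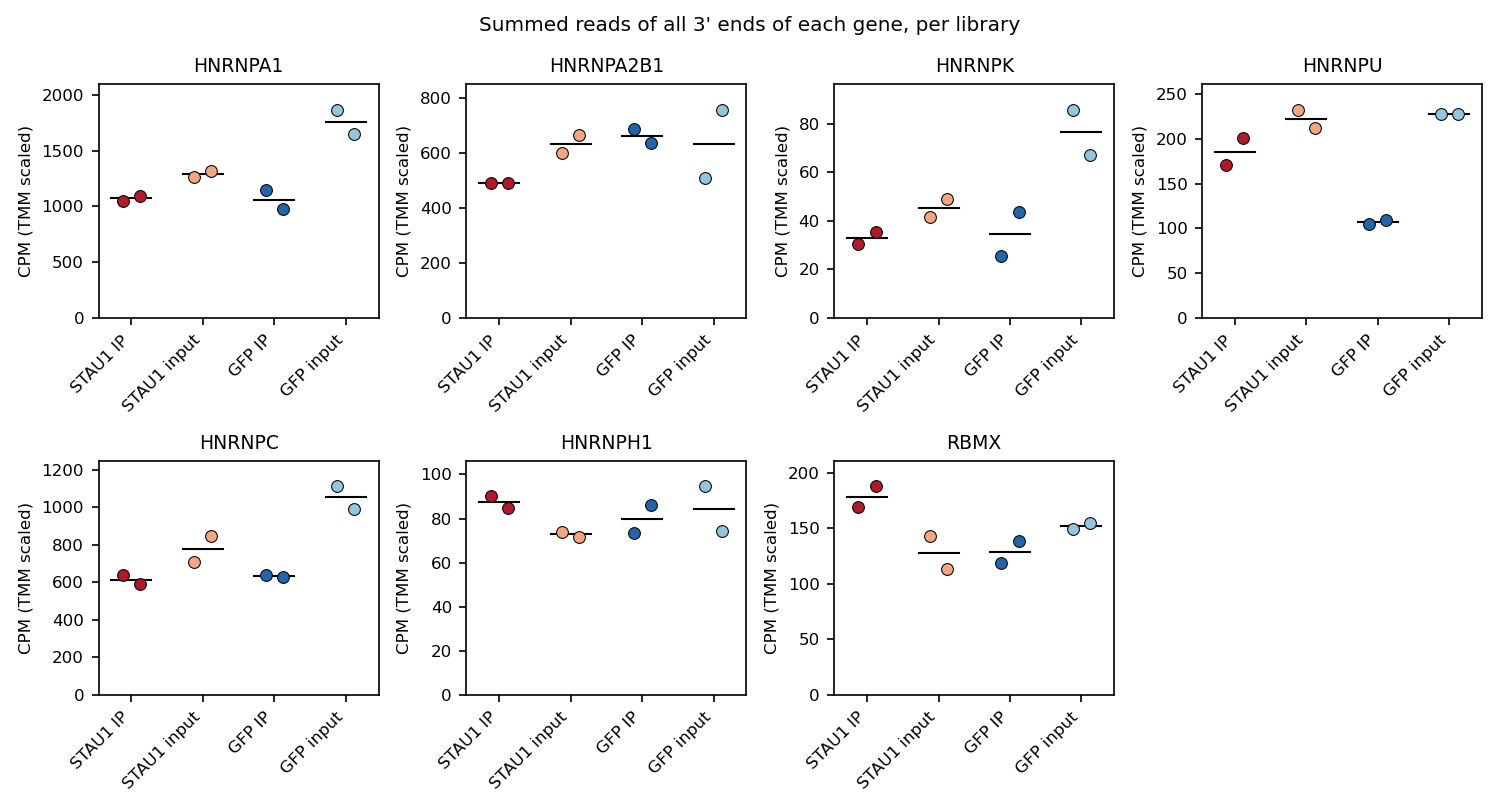
Reads of all 3′ ends of each gene, summed per library, in TMM-scaled CPM on a linear axis from 0 (points, 1 per library; lines, means of 2). The GFP IPs of HNRNPU sit at 104 and 109 CPM, below every other library, and the STAU1 IPs of RBMX at 169 and 188 CPM, above every other library.

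The order of the 4 groups by mean differed between genes. HNRNPA1 and HNRNPC had the order GFP input, STAU1 input and then both pull-downs, whose libraries overlapped. HNRNPK had the same order for the inputs, but its GFP IPs overlapped both the STAU1 inputs and the STAU1 IPs. HNRNPU had its inputs highest, which overlapped, then the STAU1 IPs and then the GFP IPs, with no overlap below the inputs. RBMX had the STAU1 IPs highest, then the GFP inputs, and its GFP IPs and STAU1 inputs overlapped. For HNRNPA2B1 the STAU1 IPs were the lowest libraries, and the other 3 groups overlapped. For HNRNPH1 the STAU1 inputs lay below the STAU1 IPs and the GFP inputs, and the GFP IPs overlapped every group.

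The double ratio, which is the STAU1 ratio of pull-down to input divided by the GFP one, compares the 2 pull-downs with each one's input taken into account. It was called for 0 of the 7 sums by edgeR, where 0.697% of all rows were called, 2 sums had an unadjusted p under 0.05, and DESeq2 called 0. Those 2 were HNRNPU, at 0.83 ± 0.28 on the log2 scale (edgeR adjusted p = 0.224), and RBMX, at 0.72 ± 0.30 (edgeR adjusted p = 0.361). The median of the 7 was 0.46 and that of all rows 0.30. HNRNPA2B1 was the 1 of 7 below 0, at −0.43 ± 0.27 (edgeR adjusted p = 0.605).

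The size of these differences depends on the scaling. The median over all tested sites of GFP IP over GFP input was −0.16 with TMM, −0.00 under RLE size factors and 0.13 when only library totals were used. The sums of HNRNPU, HNRNPK, HNRNPA1 and HNRNPC stayed below 0 with each. Relative to the TMM median of all rows they stood at −0.94, −0.99, −0.57 and −0.57. With library totals the GFP sums of HNRNPA1 and HNRNPC were −0.42 each and were not called (adjusted p = 0.124 and 0.136). The HNRNPA1 call was also lost without GFP IP replicate 2, and the HNRNPC call without either GFP IP replicate. With no filter on low counts both sums were −1.17, and those of HNRNPU and HNRNPK −1.53 and −1.57. The TMM scaling was recomputed over all sites with reads in that setting, and their median was not computed.

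End by end, 3 of the 32 members tested were called in the STAU1 IP against its input: the distal end of RBMX rose, and the most upstream main end of RBMX and the distal end of HNRNPA1 fell. Of all 33744 sites, 3.06% were called higher and 2.99% lower. Among the 6218 sites with an average log2 CPM of at least 4, those shares were 11.1% and 12.7%. In the GFP IP, 5 of the 32 were called and all 5 fell: 1 end each of HNRNPA1, HNRNPC and HNRNPK and 2 of HNRNPU. For that comparison 2.11% of all sites were called higher and 3.99% lower, and 8.25% and 18.8% of the abundant sites. The median log2 difference of the 19 main ends was −0.37 for the STAU1 pair, with 13 below 0, and −0.92 for the GFP pair, with 15 below 0. The medians of the abundant sites were −0.02 and −0.27.

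RBMX had 3 main ends, at positions 135956020, 135955608 and 135951352 of the minus strand, so the first 2 lay 4668 and 4256 nt upstream of the third. Without an hg19 gene model they cannot be placed in an exon or intron here. The distal end, at 135951352, had 159 and 176 CPM in the STAU1 IPs, against 86.6 and 90.7 CPM in the STAU1 inputs. It had 106 and 122 CPM in the GFP IPs, against 109 and 110.2 CPM in the GFP inputs. Both STAU1 IPs were above all other libraries, whereas the GFP groups overlapped. The STAU1 pair differed by 0.92 ± 0.21 (edgeR adjusted p = 0.01) and the GFP pair by 0.06 ± 0.21 (edgeR adjusted p = 0.942).

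The most upstream RBMX end, at 135956020, went the other way. It had 2.16 and 3.79 CPM in the STAU1 IPs (14 and 23 reads), against 31.2 and 13.3 CPM in the STAU1 inputs (174 and 117 reads). It had 8.29 and 5.83 CPM in the GFP IPs (12 and 8 reads), against 19.9 and 23.4 CPM in the GFP inputs (140 and 182 reads). Both pull-downs were thus below their inputs at this end. The log2 differences were −2.89 ± 0.54 in the STAU1 pair (edgeR adjusted p = 0.00248) and −1.61 ± 0.56 in the GFP pair (edgeR adjusted p = 0.113). The STAU1 call held in all 13 alternative settings, with differences between −3.39 and −2.24. The GFP difference was called when any 1 of the 4 STAU1 libraries was left out (edgeR adjusted p between 0.0265 and 0.0447).

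The middle RBMX end, at 135955608, had 7.26 and 6.43 CPM in the STAU1 IPs, against 25.1 and 6.25 CPM in the STAU1 inputs, and means of 6.79 ± 2.76 CPM in the GFP IPs, against 17.3 ± 2.38 CPM in the GFP inputs (SD, n = 2 each). The STAU1 groups overlapped, since the 2 inputs lay far apart, and the GFP groups did not. The differences were −1.18 ± 0.58 (edgeR adjusted p = 0.28) and −1.35 ± 0.65 (edgeR adjusted p = 0.302). Without STAU1 input replicate 2 the STAU1 difference was −1.88 and was called (edgeR adjusted p = 0.0205).

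The distal end therefore took a larger share of RBMX reads in the pull-downs. It held 93.9% ± 0.325 in the STAU1 IPs, against 70.4% ± 13.9 in the STAU1 inputs, and 88.7% ± 0.376 in the GFP IPs, against 72.3% ± 1.34 in the GFP inputs (SD, n = 2 each). The STAU1 inputs differed from each other, with 60.6% in replicate 1 and 80.2% in replicate 2. The call of the distal end was lost without either STAU1 IP (adjusted p = 0.0515 and 0.174), without STAU1 input replicate 1 (0.169), without GFP IP replicate 2 (0.0609) and with no filter on low counts (0.71, adjusted p = 0.943).

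The change in the ratio of distal to proximal reads was tested over 3650 pairs of ends, of which 6 were of these genes. The 2 most-read ends of HNRNPK lie 93 nt apart, under the minimum of 100 nt, and formed no pair. In the STAU1 IP against its input the RBMX ratio rose, and 0.384% of all pairs were called. The ratio of the end at 135951352 to that at 135956020 was 73.6 and 46.5 in the STAU1 IPs, against 2.78 and 6.82 in the STAU1 inputs. It was 12.8 and 21.0 in the GFP IPs, against 5.49 and 4.72 in the GFP inputs. Each pull-down library was above each input library, and the STAU1 IPs were above the GFP IPs.

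On the log2 scale the RBMX ratio differed by 3.73 ± 0.62 in the STAU1 pair (edgeR adjusted p = 0.0406) and by 1.66 ± 0.63 in the GFP pair (edgeR adjusted p = 0.341). The difference between those differences, 2.06 ± 0.88, was not called (edgeR adjusted p = 0.663). The STAU1 call held in 2 of 12 alternatives (at least 30 reads, and without STAU1 input replicate 2) and was lost in the others with adjusted p up to 0.329, while the estimate stayed between 3.07 and 4.37. Of the 6 pairs, 0 were called in the GFP IP and 0 in the double ratio by edgeR, where 0.0% and 0.0% of all pairs were called, and 2 and 3 of the 6 had an unadjusted p under 0.05.

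HNRNPA1 had 2 main ends 365 nt apart, a proximal one at 54678663 and a distal one at 54679028 on the plus strand. The proximal end had 758 and 828 CPM in the STAU1 IPs, against 845 and 853 CPM in the STAU1 inputs. It had 620 and 603 CPM in the GFP IPs, against 1306 and 1094 CPM in the GFP inputs. The GFP IPs were the lowest of the 8 libraries. That pair differed by −0.97 ± 0.17 (edgeR adjusted p = 0.00104), a call held in 13 of 13 alternatives, and the STAU1 pair by −0.10 ± 0.16 (edgeR adjusted p = 0.809).

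The distal HNRNPA1 end had 280.3 and 268 CPM in the STAU1 IPs, against 415 and 463 CPM in the STAU1 inputs. It had 516 and 362 CPM in the GFP IPs, against 558 and 547 CPM in the GFP inputs. Here it was the STAU1 IPs that were lowest. The STAU1 pair differed by −0.68 ± 0.19 (edgeR adjusted p = 0.0392) and the GFP pair by −0.33 ± 0.19 (edgeR adjusted p = 0.417). The STAU1 call was lost with library totals, without either STAU1 IP and without STAU1 input replicate 2, where adjusted p reached 0.176. The proximal end held 74.0% ± 2.03 of HNRNPA1 reads in the STAU1 IPs, against 65.8% ± 1.59 in the STAU1 inputs, and 58.1% ± 5.55 in the GFP IPs, against 68.2% ± 2.47 in the GFP inputs (SD, n = 2 each). The change in the distal to proximal ratio was not called in either pair (−0.58 ± 0.37, edgeR adjusted p = 0.532 for STAU1; 0.61 ± 0.37, edgeR adjusted p = 0.54 for GFP), nor was their difference, −1.19 ± 0.52 (edgeR adjusted p = 0.663).

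HNRNPC had 2 main ends 382 nt apart, at 21679097 (proximal) and 21678715 (distal) on the minus strand. The distal end had 545 and 520.0 CPM in the STAU1 IPs, against 612 and 745 CPM in the STAU1 inputs. It had 496 and 493 CPM in the GFP IPs, against 995 and 884 CPM in the GFP inputs. It fell in the GFP IP, by 0.92 ± 0.17 on the log2 scale (edgeR adjusted p = 0.00228, held in 13 of 13 alternatives), and in the STAU1 IP it differed by −0.35 ± 0.17 (edgeR adjusted p = 0.274).

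The proximal HNRNPC end had 61.3 and 48.1 CPM in the STAU1 IPs, against 76.4 and 78.5 CPM in the STAU1 inputs, and 125 and 99.9 CPM in the GFP IPs, against 95.6 and 74.4 CPM in the GFP inputs. The 2 pull-downs thus lay on opposite sides of their inputs, and neither difference was called (−0.50 ± 0.24, edgeR adjusted p = 0.266, and 0.40 ± 0.25, edgeR adjusted p = 0.442). Its share of HNRNPC reads was 8.88% ± 1.06 in the STAU1 IPs, against 10.1% ± 1.10 in the STAU1 inputs, and 17.7% ± 2.58 in the GFP IPs, against 8.04% ± 0.768 in the GFP inputs (SD, n = 2 each). The GFP IPs had the highest shares of the 8 libraries. The distal to proximal ratio differed by −1.33 ± 0.39 in the GFP pair (edgeR adjusted p = 0.26), and the double ratio was 1.50 ± 0.55 (edgeR adjusted p = 0.647).

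HNRNPU had 6 main ends on the minus strand, the most of the 7 genes. They lay at 245017717, 245017436, 245016963, 245016691, 245014474 and 245013601, the last being the most distal. The end at 245017436 had 35.5 and 38.9 CPM in the STAU1 IPs, against 81.8 and 57.5 CPM in the STAU1 inputs, and 15.2 and 18.2 CPM in the GFP IPs, against 46.7 and 64.5 CPM in the GFP inputs. Both pull-downs were below their inputs, and the GFP pair was called, at −1.74 ± 0.33 (edgeR adjusted p = 0.00243), whereas the STAU1 pair stood at −0.90 ± 0.29 (edgeR adjusted p = 0.0747) and was called without STAU1 input replicate 2 (−1.14, edgeR adjusted p = 0.0331).

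The HNRNPU end at 245016691 had 43.0 and 35.4 CPM in the STAU1 IPs, against 41.3 and 35.9 CPM in the STAU1 inputs, and 13.1 and 13.8 CPM in the GFP IPs, against 36.9 and 42.3 CPM in the GFP inputs. The GFP IPs stood apart from the other 6 libraries. Their difference from the inputs was −1.55 ± 0.34 (edgeR adjusted p = 0.00736, lost without GFP IP replicate 1, at 0.0711), and the STAU1 difference was 0.02 ± 0.29 (edgeR adjusted p = 0.981).

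The HNRNPU end at 245016963 had 58.6 and 78.8 CPM in the STAU1 IPs, against 38.6 and 42.9 CPM in the STAU1 inputs. It had 29.7 and 24.1 CPM in the GFP IPs, against 54.5 and 40.0 CPM in the GFP inputs. The STAU1 IPs were the highest and the GFP IPs the lowest libraries, but neither pair was called (0.75 ± 0.28, edgeR adjusted p = 0.14, and −0.81 ± 0.31, edgeR adjusted p = 0.156). This end held 36.8% ± 3.54 of HNRNPU reads in the STAU1 IPs, against 18.4% ± 2.56 in the STAU1 inputs, and 25.2% ± 4.58 in the GFP IPs, against 20.8% ± 4.48 in the GFP inputs (SD, n = 2 each). Its ratio to the end 473 nt upstream differed by 1.62 ± 0.57 in the STAU1 pair (edgeR adjusted p = 0.285) and by 0.92 ± 0.60 in the GFP pair (edgeR adjusted p = 0.57).

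The other 3 HNRNPU main ends were not called with all libraries in the fit. The end at 245017717 had 6.03 and 20.3 CPM in the STAU1 IPs, against 30.9 and 30.7 CPM in the STAU1 inputs, and 19.4 and 21.1 CPM in the GFP IPs, against 33.9 and 28.1 CPM in the GFP inputs. Its differences were −1.23 ± 0.44 for STAU1 (edgeR adjusted p = 0.116) and −0.62 ± 0.46 for GFP (edgeR adjusted p = 0.551). The 2 STAU1 IPs lay far apart: without replicate 2 the STAU1 difference was −2.40 and was called (edgeR adjusted p = 0.00119), and it was also called without GFP IP replicate 1 or 2 (edgeR adjusted p = 0.0399 and 0.0389). At 245014474 they were −1.26 ± 0.41 (edgeR adjusted p = 0.0838) and −1.31 ± 0.45 (edgeR adjusted p = 0.103), and the GFP difference was called without STAU1 IP replicate 2 or either STAU1 input (edgeR adjusted p between 0.0391 and 0.0482). At 245013601 they were 0.24 ± 0.52 and −0.57 ± 0.56 (edgeR adjusted p = 0.867 and 0.677). Within this 1 gene the STAU1 differences of the main ends thus ran between −1.26 and 0.75, and those of GFP were all below 0.

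**Figure D2:**
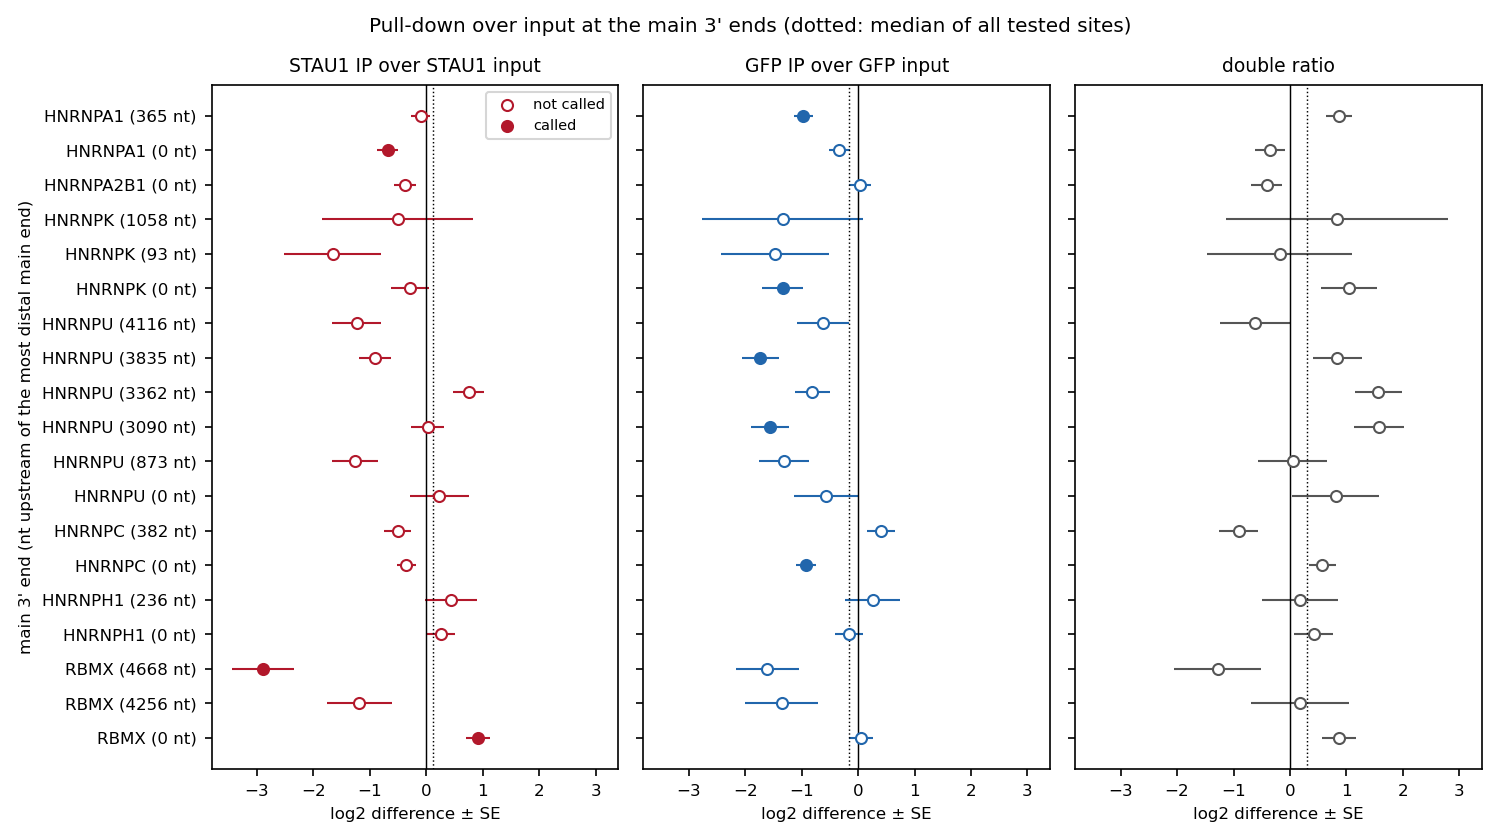
Log2 differences (± SE, edgeR) of the 19 main ends: the STAU1 IP against its input (left), the GFP IP against its input (middle) and their double ratio (right); filled points were called and the dotted line is the median of all tested sites. The RBMX ends at 4668 and 0 nt stand at −2.89 and 0.92 in the STAU1 panel, and in the double ratio no end was called.

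HNRNPK had its main end at 86582999. It had 24.7 and 29.2 CPM in the STAU1 IPs, against 26.9 and 38.9 CPM in the STAU1 inputs, and 16.6 and 29.9 CPM in the GFP IPs, against 71.7 and 45.6 CPM in the GFP inputs. The GFP groups did not overlap and the STAU1 groups did. The GFP pair was called, at −1.34 ± 0.37 (edgeR adjusted p = 0.0339, lost in 4 of 13 alternatives, the same ones as for the sum), and the STAU1 pair stood at −0.29 ± 0.34 (edgeR adjusted p = 0.704). Its 2 lesser main ends, at 86583092 and 86584057, had at most 75 reads in any library and were not called.

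HNRNPA2B1 had 1 main end, at 26231467, with between 93.5% and 97.9% of its reads in each library. It had 474 and 478 CPM in the STAU1 IPs, against 590 and 643 CPM in the STAU1 inputs, and 642 and 609 CPM in the GFP IPs, against 480 and 737 CPM in the GFP inputs. The differences were −0.37 ± 0.19 (edgeR adjusted p = 0.305) and 0.04 ± 0.19 (edgeR adjusted p = 0.959). HNRNPH1 had 2 main ends 236 nt apart, at 179041416 and 179041180. The distal one, at 179041180, had 75.2 and 71.7 CPM in the STAU1 IPs, against 64.6 and 58.2 CPM in the STAU1 inputs, and 56.0 and 72.9 CPM in the GFP IPs, against 79.7 and 64.0 CPM in the GFP inputs. Neither HNRNPA2B1 nor HNRNPH1 had an end called in either pull-down.

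The 13 members tested that were not main ends were not called in any of these comparisons. Of these, 2 were chosen for description after their values were seen. The most read of HNRNPA2B1 among them, at 26229932, lay 1535 nt downstream of its main end. It had 13.3 and 7.25 CPM in the STAU1 IPs, against 10.6 and 16.2 CPM in the STAU1 inputs, and 29.0 and 23.3 CPM in the GFP IPs, against 18.6 and 15.1 CPM in the GFP inputs. The GFP IPs were the highest libraries at this end, with a log2 difference of 0.63 ± 0.44 (edgeR adjusted p = 0.519). HNRNPC had a like minor end at 21677590, with 21.3 and 8.57 CPM in the STAU1 IPs, against 7.89 and 10.8 CPM in the STAU1 inputs, and means of 18.2 ± 8.21 CPM in the GFP IPs, against 11.3 ± 3.86 CPM in the GFP inputs (SD, n = 2 each); the groups of each pair overlapped. The other 8 of the 40 members had too few reads to be tested.

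**Figure D3:**
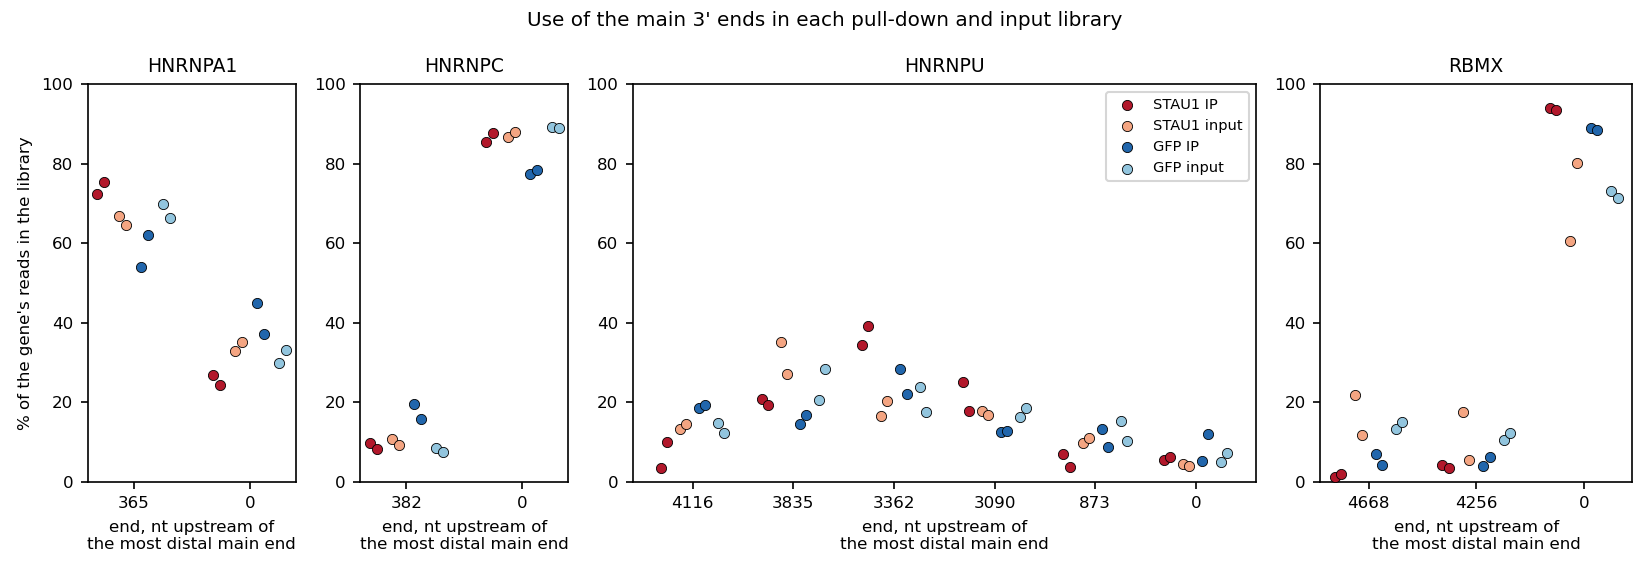
Share of each gene's reads at each main end (%, 1 point per library) for HNRNPA1, HNRNPC, HNRNPU and RBMX, with ends named by their distance upstream of the most distal main end. The distal RBMX end holds 60.6% and 80.2% in the 2 STAU1 inputs and over 93% in both STAU1 IPs.

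The double ratio was called for 0 of the 32 members by edgeR (0.688% of all sites), of which 7 had an unadjusted p under 0.05. DESeq2 called 2 of them, the proximal end of HNRNPA1 and the HNRNPU end at 245016963, but its share of all sites was not computed. By edgeR these stood at 0.87 ± 0.23 and 1.56 ± 0.42 on the log2 scale (adjusted p = 0.1 and 0.1). Both were called by edgeR without STAU1 input replicate 2 (adjusted p = 0.0287 and 0.0289) and without GFP input replicate 2 (adjusted p = 0.0103 and 0.0381). The HNRNPU end at 245016691 stood at 1.58 ± 0.45 (edgeR adjusted p = 0.132) and the distal RBMX end at 0.86 ± 0.30 (edgeR adjusted p = 0.234). The median of the 19 main ends was 0.42 with TMM, where all tested sites had 0.30 and the abundant sites 0.20. Of the 19, 13 were above 0 with TMM and 11 under each of the other scalings (RLE size factors, library totals). The STAU1 and GFP inputs, which differ in the plasmid, were called apart at 0 of the 32 members by edgeR and by DESeq2. Of all sites, 0.00889% were called by edgeR. Of the 32, 3 had an unadjusted p under 0.05 and 26 were lower in the STAU1 inputs. The median log2 difference was −0.32, and that of all tested sites −0.08. Of the 7 sums, edgeR called 0, but 3 had an unadjusted p under 0.05 and 6 were below 0. HNRNPK stood at −0.76, HNRNPA1 at −0.45 and HNRNPC at −0.44.

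Some reads of these genes are uncertain. RefSeq names (GRCh38.p14) list 75 numbered HNRNPA1 pseudogenes, 9 of HNRNPC, 5 each of HNRNPK and RBMX, 3 of HNRNPH1 and 1 of HNRNPU, which may share reads with the parent gene. That list also holds like-named genes for HNRNPA1, HNRNPC, HNRNPU and RBMX. Other genes overlap HNRNPK, HNRNPU, HNRNPH1 and RBMX in it, with strand not considered. The sources used here do not give how the authors treated reads with several matches.

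In the fractions, with 1 library per group and no test, 4 mRNAs, each summed over its ends, were lower in polysomes than in cytoplasm in both genotypes, with counting intervals below 0: HNRNPU, HNRNPA2B1, HNRNPC and, by less, HNRNPK. The intervals of the main HNRNPK end alone included 0 in both genotypes. HNRNPH1 was higher in polysomes in both, and with TMM scaling HNRNPA1 and RBMX were at about the same level in the 2 fractions. The 95% intervals given for them come from read counting alone and leave out any spread between cultures.

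HNRNPU had 95.3 CPM in KO_P, against 234 CPM in KO_C, and 92.5 CPM in WT_P, against 226 CPM in WT_C. Its log2 polysome over cytoplasm difference was −1.30 (−1.48 to −1.12) in the knockout and −1.29 (−1.50 to −1.08) in the wild type. HNRNPA2B1 had 918 CPM in KO_P, against 1712 CPM in KO_C, and 805 CPM in WT_P, against 2089 CPM in WT_C. Its differences were −0.90 (−0.96 to −0.84) and −1.38 (−1.45 to −1.31), so that the intervals of the 2 genotypes do not overlap. HNRNPC had 334 CPM in KO_P, against 553 CPM in KO_C, and 332 CPM in WT_P, against 604 CPM in WT_C, with differences of −0.73 (−0.83 to −0.63) and −0.86 (−0.98 to −0.75).

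HNRNPH1 had 164 CPM in KO_P, against 123 CPM in KO_C, and 144 CPM in WT_P, against 80.1 CPM in WT_C. Its differences were 0.41 (0.23 to 0.60) and 0.85 (0.61 to 1.09), so that the intervals of the genotypes do not overlap here either. HNRNPA1 had 2451 CPM in KO_P, against 2411 CPM in KO_C, and 2761 CPM in WT_P, against 2860 CPM in WT_C, with differences of 0.02 (−0.02 to 0.07) and −0.05 (−0.10 to −0.01). These were the differences closest to 0 among the 7 genes in the wild type and the knockout. RBMX had 106 CPM in KO_P, against 100.1 CPM in KO_C, and 137 CPM in WT_P, against 146 CPM in WT_C, with differences of 0.08 (−0.13 to 0.30) and −0.10 (−0.30 to 0.11). HNRNPK had 64.9 CPM in KO_P, against 77.9 CPM in KO_C, and 44.2 CPM in WT_P, against 60.8 CPM in WT_C, with differences of −0.26 (−0.52 to −0.01) and −0.46 (−0.80 to −0.13). Its main end, at 86582999, stood at −0.20 (−0.47 to 0.07) and −0.36 (−0.73 to 0.001).

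Of the 29 fraction members, 10 had at least 50 reads in each of the 4 libraries, as did 4766 sites in all. Among these 10, 1 was lower by 2-fold or more in KO_P than in KO_C (4.68% of all such sites) and 0 were higher by that much (1.74%). In WT_P over WT_C, 4 were lower (5.87%) and 1 was higher (2.52%). Their medians were −0.45 in the knockout and −0.59 in the wild type, where all sites had 0.01 and −0.02. With library totals in place of TMM the medians of all sites were 0.21 and 0.24, and those of the members −0.25 and −0.33. The member medians also moved with the read minimum, to −0.16 in the knockout and −0.25 in the wild type at 100 reads.

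The KO minus WT difference of log2 polysome over cytoplasm, which asks whether the distribution differed without STAU1, was under 2-fold at all 10 members, where 1.62% of all sites reached 2-fold. The farthest from 0 were the proximal HNRNPC end, at 0.65 (0.26 to 1.05), the distal HNRNPH1 end, at −0.57 (−0.89 to −0.25), and the HNRNPA2B1 end, at 0.50 (0.40 to 0.59). Ranked among all sites with the read minimum, these ends stood at the percentiles 94.8, 5.65 and 89.5. The summed values were 0.48 for HNRNPA2B1, −0.43 for HNRNPH1 and −0.01 for HNRNPU. None of the 10 differed by 2-fold between KO_C and WT_C (4.09% of all sites) or between KO_P and WT_P (2.18%). In the cytoplasm the distal HNRNPH1 end had 112 CPM in KO_C, against 66.3 CPM in WT_C, a difference of 0.75 (0.49 to 1.02), and the distal RBMX end had 73.7 CPM in KO_C, against 120.5 CPM in WT_C, a difference of −0.71 (−0.95 to −0.46). These are differences between single libraries of 2 clones, and genotype, clone and library cannot be told apart.

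**Figure D4:**
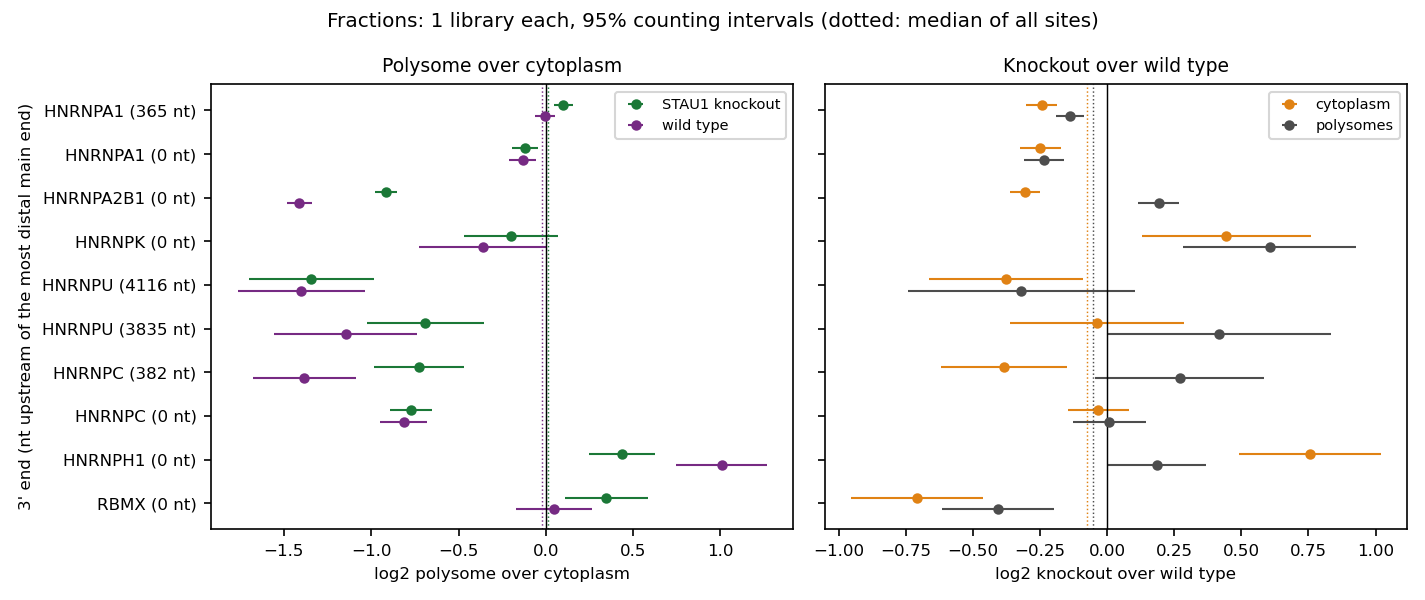
Log2 polysome over cytoplasm (left) and log2 knockout over wild type (right) of the 10 ends with at least 50 reads in each of the 4 fraction libraries, with 95% counting intervals; dotted lines are medians of all 4766 such sites. The HNRNPA2B1 end stands at −0.91 in the knockout and −1.41 in the wild type, and the distal HNRNPH1 end at 0.44 and 1.01.

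The most upstream RBMX end had a smaller share in polysomes than in cytoplasm. This end at 135956020 held 6.55% of RBMX reads in KO_P (4.54% to 9.37%), against 14.6% in KO_C (11.1% to 18.9%), and 3.47% in WT_P (2.08% to 5.75%), against 11.8% in WT_C (8.91% to 15.5%; Wilson intervals). The distal end held 88.3% in KO_P, against 73.7% in KO_C, and 90.8% in WT_P, against 82.3% in WT_C. The intervals of the upstream end's share did not overlap between polysome and cytoplasm in either genotype. That share rests on 27 reads in KO_P, 46 in KO_C, 14 in WT_P and 44 in WT_C. The proximal HNRNPA1 end held 67.0% in KO_P (66.1% to 68.0%), against 63.6% in KO_C (62.5% to 64.7%), which did not overlap, and 65.5% in WT_P (64.5% to 66.6%), against 63.5% in WT_C (62.4% to 64.6%), which did. The HNRNPU end at 245016691 held 5.14% in KO_P (3.31% to 7.88%), against 12.5% in KO_C (10.3% to 15.1%). In the wild type it held 9.93% in WT_P (6.91% to 14.1%), against 10.2% in WT_C, where the intervals overlapped. It had 19 reads in KO_P, 92 in KO_C, 27 in WT_P and 59 in WT_C. Other ends had shares apart too. The HNRNPA2B1 end held 96.0% in WT_P, against 98.6% in WT_C, and 96.2% in KO_P, against 97.2% in KO_C, with no overlap. Only the wild-type intervals were apart at the distal HNRNPH1 end (92.5% in WT_P, 82.8% in WT_C) and the proximal HNRNPC end (13.5%, 19.4%). Only the knockout intervals were apart at the HNRNPU end at 245017436 (34.3% in KO_P, 22.6% in KO_C).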

How the data were processed

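The authors deposited 2 tables of read counts per poly(A) site (3'READS+, hg19, both strands kept apart), 1 for the 8 pull-down libraries and 1 for the 4 fraction libraries; the submitters' processing notes name STAR, with no version. All 12 libraries were used and 0 columns left out. The genes, their ranges and the settings were chosen with earlier results of these data known. The pull-down counts were fitted with edgeR 4.0.16 (R 4.3.3; glmQLFit, TMM, filterByExpr; 4 groups, 4 residual degrees of freedom) over the whole table. The SE given with a log2 difference is its size divided by the square root of the F statistic of the test. For sums, the sites of each range were replaced by their total (33719 rows tested). Pairs were the 2 most-read sites at least 100 nt apart in a range, or in a run of sites with gaps of at most 5000 nt, with a mean of at least 10 reads. Ends were named if they held at least 5% of their range's reads in either table, or were called with at least 50 reads; 2 minor ends, of HNRNPA2B1 and HNRNPC, were added after their values were seen. Fractions were compared by log2 ratios of TMM-scaled counts, without a test. The fits were tested on simulated data. Replicates were not duplicates, with chi-square per degree of freedom of their counts between 3.04 and 12.7. Alternatives were DESeq2 1.42.0, other scalings, other minimums, a replicate block and leaving out each library. No gene sequence is shown, since no hg19 genome was used.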

Additional observations from a re-analysis of the deposited data

How the results depend on the processing

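Calls at member sites for GFP IP over GFP input numbered 5 as reported and 3 to 7 with 1 library left out; for STAU1 IP over STAU1 input they numbered 3, and 1 to 4. The double ratio had 0, but 2 with DESeq2, 1 with no filter on low counts and 0 to 2 with 1 library left out. The GFP sums had 4, but 1 with library totals and 2 to 4 with 1 library left out; the STAU1 sums had 0, but 3 with no filter. For end pairs in the STAU1 comparison the 1 call became 0 with at least 5 reads and with the outermost sites as the pair, and 0 to 1 with 1 library left out. The median of the fraction members changed from −0.45 to −0.16 (KO_P over KO_C, at least 100 reads), and from −0.59 to −0.33 (library totals), −0.32 (at least 20 reads) and −0.25 (at least 100 reads) for WT_P over WT_C. With library totals the distal HNRNPA1 end changed sign, to 0.078 in KO_P over KO_C and 0.13 in WT_P over WT_C. The proximal HNRNPA1 end then stood at 0.30 and 0.26, where the medians of all sites were 0.21 and 0.24. The cause of these changes was not tested. The setting with no filter also recomputed the TMM scaling over all sites with reads. For the pull-downs, shares of all sites were computed only for edgeR's adjusted p with all libraries. Counts under other settings or by unadjusted p therefore have no such share beside them. The all-site median of the fractions set to 0 was chosen after seeing the data and gave −0.46 and −0.56.

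With a replicate block, the fit had a term for the replicate number, shared by the same-numbered libraries of all 4 groups. Their deviations correlated between −0.04 and 0.10 for each pull-down with its input, for the inputs and for the pull-downs. The numbers do not show a pairing there, and with so few libraries per group a pairing that moves few sites could not be seen. The block gave 4 calls in the STAU1 comparison, the added one being the HNRNPU end at 245017717 (−1.32, edgeR adjusted p = 0.0417), 5 calls in the GFP comparison, 4 GFP sums and 0 RBMX pair calls (adjusted p = 0.0742). Where 1 library is left out, the lone library of its group is assumed to vary like the other groups. The gene sums had 37 to 1656 reads in the GFP IPs. In the fractions, ends under 50 reads in any library were not compared by log2 ratio. The shares given for the most upstream RBMX end and for the HNRNPU end at 245016691 rest on fewer reads than that.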
